A study of Homo sapiens with 6 samples.

Results

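Interferons are secreted proteins that infected cells make to put themselves and their neighbours into an antiviral state, and the genes described here are those of interferons and of the receptors that bind them. The members were chosen by gene symbol: 4 interferon genes (IFNL1, IFNL2, IFNL3 and IFNB1) and 6 receptor genes (IFNAR1, IFNAR2, IFNLR1, IL10RB, IFNGR1 and IFNGR2). All 10 had a probe set paired with a single symbol, among 18417 named genes on the array. The cells were HCT116, an established human colorectal carcinoma line, harvested 48 h after a transient transfection, with 3 arrays labelled control and 3 labelled siChe-1. The control arrays carry double-stranded RNA oligos against GFP, a jellyfish protein gene that the cells do not normally have, and the siChe-1 arrays carry oligos against Che-1, the product of AATF. Both groups were therefore transfected with short RNA duplexes, and an untransfected group was not analysed here. No label ties an array to a culture of its own, so the p-values speak only for the spread among these 6 arrays, which may be technical.

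Type I interferons such as interferon beta, made from IFNB1, bind a receptor of IFNAR1 and IFNAR2 that nearly all cells carry. Type III interferons, the lambda proteins made from IFNL1, IFNL2 and IFNL3, bind IFNLR1 paired with IL10RB and act mainly on epithelial cells such as those of the gut. Both receptors activate the kinases JAK1 and TYK2 and the factor ISGF3, whose DNA-binding part is IRF9 and which switches on a largely shared set of antiviral genes. Type II interferon, or interferon gamma, comes from lymphocytes and signals through IFNGR1 and IFNGR2.

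The gene that the oligos target did not follow the labels. AATF read 7.55, 7.75 and 7.55 in the arrays labelled control and 8.53, 8.81 and 8.87 in those labelled siChe-1 (log2 RMA intensity), a difference of 1.12 ± 0.13 (SE, n = 3 each, limma adjusted p = 0.00122). The targeted transcript was thus higher where the label says that it was depleted. Groups are named here by their labels only, and "lower" means lower in the arrays labelled siChe-1. Every direction given would turn if the labels were exchanged.

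The upstream sequences of the interferon genes are shown because 3 of the 4 members that passed the test are lambda genes. Each is the 250 bases before the annotated start of the gene, 5′ to 3′ on the gene's own strand, from RefSeq on build GRCh38.p14. In both lambda sequences the capitals mark matches to the ISRE-like motif (GAAA, any 2 bases, then GAAA), read on either strand, which is the kind of element that interferon regulatory factors and ISGF3 bind. In the IFNB1 sequence they mark matches to the NF-kB-like motif (GGG, any 5 bases, then CC), read likewise. The IFNL1 and IFNL2 sequences also hold 3 NF-kB-like matches each, which are not marked.
IFNL1 (chr19:39296157-39296406, + strand): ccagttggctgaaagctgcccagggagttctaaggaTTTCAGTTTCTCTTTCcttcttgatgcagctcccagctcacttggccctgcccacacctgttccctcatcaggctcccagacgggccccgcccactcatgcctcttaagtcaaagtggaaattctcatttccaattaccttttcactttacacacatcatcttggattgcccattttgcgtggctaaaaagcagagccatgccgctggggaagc
IFNL2 (chr19:39268146-39268395, + strand): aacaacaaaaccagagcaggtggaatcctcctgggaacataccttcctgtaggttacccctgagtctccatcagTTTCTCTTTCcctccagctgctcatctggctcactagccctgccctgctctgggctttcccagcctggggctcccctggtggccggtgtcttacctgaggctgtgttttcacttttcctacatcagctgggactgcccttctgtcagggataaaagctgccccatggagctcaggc
IFNB1 (chr9:21077943-21078192, - strand): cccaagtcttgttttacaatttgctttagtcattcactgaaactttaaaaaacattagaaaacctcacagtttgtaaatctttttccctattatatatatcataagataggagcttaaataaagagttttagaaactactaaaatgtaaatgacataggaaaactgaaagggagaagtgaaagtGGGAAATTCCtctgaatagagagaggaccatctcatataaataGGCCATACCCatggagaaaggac
The stretch before IFNL3 (chr19:39245251-39245500, - strand) was identical to that of IFNL2 at 249 of 250 bases. The single difference was C31T, with the IFNL2 base first and positions counted from 1 at the 5′ end of the stretch shown.

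IFNL1 held 2 overlapping ISRE-like matches, between 214 and 199 bases before the start, and IFNL2 and IFNL3 each held 1, from 176 to 167 bases before it. The RefSeq table gave 12 promoters for 9 of the members, IFNAR2 having none. Of these, 3 held the ISRE-like motif, 1 for each lambda gene, against 3.02% of all 35116 promoters of this length. The second promoter listed for IFNL3, the promoter of IFNB1 and the 7 promoters of 5 receptor genes did not hold those letters. The GAS-like motif TTCNNNGAA, the kind of element that STAT dimers bind, matched once before IFNB1 and once before IFNLR1 (6.57% of all promoters). The NF-kB-like motif is loose. It matched 9 of the 12 member promoters and 54.4% of all, and its match before IFNB1 from 66 to 57 bases upstream reads GGGAAATTCC. IFNGR2, the fourth member that passed, held no ISRE-like match. The search took GAAA repeats 2 bases apart and no other spacing, so it passes over other GAAA repeats, such as those in the IFNB1 stretch. These are matches of letters, and no binding was measured.

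The 3 lambda interferon genes and the receptor gene IFNGR2 had lower signal in arrays labelled siChe-1 than in arrays labelled control. Thus 4 of 10 members were lower at an adjusted p under 0.05 by limma and 6 did not pass, with no member higher, where 2.52% of all named genes were lower and 1.19% higher. By role, 3 of 4 interferon genes and 1 of 6 receptor genes were lower. The same 4 members had all siChe-1 values below all control values, a pattern seen in 13.3% of all genes, and no member had all siChe-1 values above, as 10.6% of all genes did. The median difference was -0.26 over the 10 members and 0.0051 over all genes, on the log2 scale. The members were listed with results of this comparison known, so their count is a description.

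**Figure D1:**
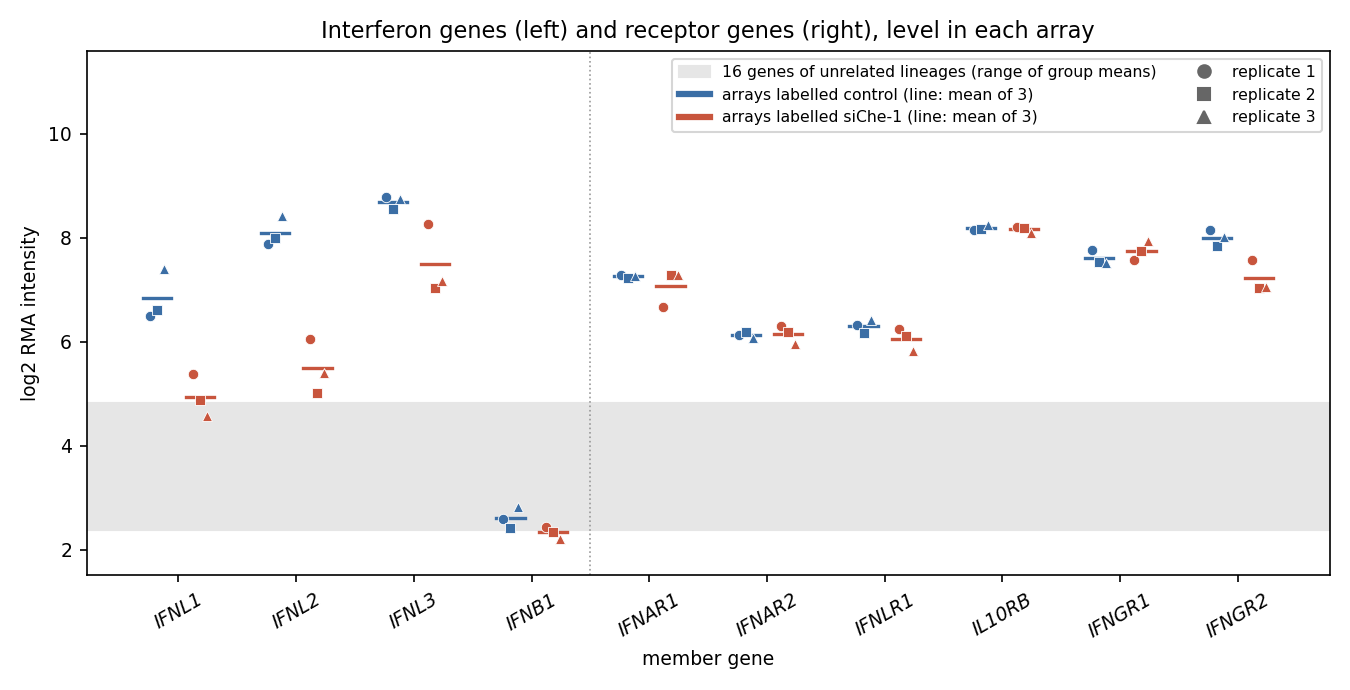
Level of each member gene in each of the 6 arrays (y axis, log2 RMA intensity), with the group mean as a line; marker shape gives the replicate number. The grey band spans the group means of 16 genes of unrelated lineages, and levels are to be compared within a gene and not between genes. IFNL1, IFNL2, IFNL3 and IFNGR2 separate the groups, IFNB1 lies at the foot of the scale in both, and siChe-1 replicate 1 stands apart for IFNL3 and IFNAR1.

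IFNL2, which encodes interferon lambda 2, showed the largest measured difference of the 10, within limits given below for IFNL1 and IFNL3. It read 7.88, 8.00 and 8.41 in the arrays labelled control and 6.06, 5.02 and 5.40 in those labelled siChe-1. The groups were 1.82 apart at their nearest values. The mean fell from 8.10 ± 0.28 to 5.49 ± 0.53 (SD, n = 3 each), a difference of -2.61 ± 0.24 (SE), or 6.09-fold, with limma adjusted p = 0.000214.

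IFNL1, which encodes interferon lambda 1, read 6.50, 6.61 and 7.40 in the arrays labelled control, where replicate 3 was the highest. In those labelled siChe-1 it read 5.38, 4.87 and 4.56. The groups did not overlap, and the difference was -1.90 ± 0.26 (SE), or 3.73-fold, with limma adjusted p = 0.00279. Its siChe-1 mean of 4.94 lay just above the highest of 16 measured genes of unrelated lineages there, GFAP at 4.83, so it is not shown to be above background and the size of the fall is uncertain.

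IFNL3, which encodes interferon lambda 3, was bright in both groups and differed less. It read 8.79, 8.55 and 8.74 in the arrays labelled control and 8.26, 7.04 and 7.17 in those labelled siChe-1, so replicate 1 of the latter lay close to the control arrays. The difference was -1.20 ± 0.27 (SE), or 2.30-fold, with limma adjusted p = 0.0387. The call was kept without siChe-1 replicate 1 (-1.59, adjusted p = 3.32e-05) and lost without siChe-1 replicate 2 (-0.98, 0.0886), siChe-1 replicate 3 (-1.04, 0.119) or control replicates 1 (-1.15, 0.163), 2 (-1.27, 0.130) or 3 (-1.18, 0.155). Over its 13 alternatives the limma adjusted p ran from 1.55e-05 to 0.163. IFNL2 and IFNL3 are near-identical copies, so their probe sets may share signal, and the split of the fall between them is uncertain.

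IFNB1, the gene of interferon beta and the only type I interferon gene among the members, was at the foot of the scale. It read 2.59, 2.41 and 2.82 in the arrays labelled control and 2.44, 2.35 and 2.21 in those labelled siChe-1, and the groups overlapped. The difference of -0.28 ± 0.14 (SE) had limma adjusted p = 0.340 and a 95% confidence interval from -0.58 to 0.03. Both means, 2.61 and 2.33, lay below those of many genes that colon cells are not thought to make, whose means ran from 2.52 to 4.58 in the arrays labelled control and from 2.37 to 4.83 in those labelled siChe-1. Its transcript was not detectable above background here, and a change in it could not be measured. The other 9 members had means above that range in both groups.

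**Figure D2:**
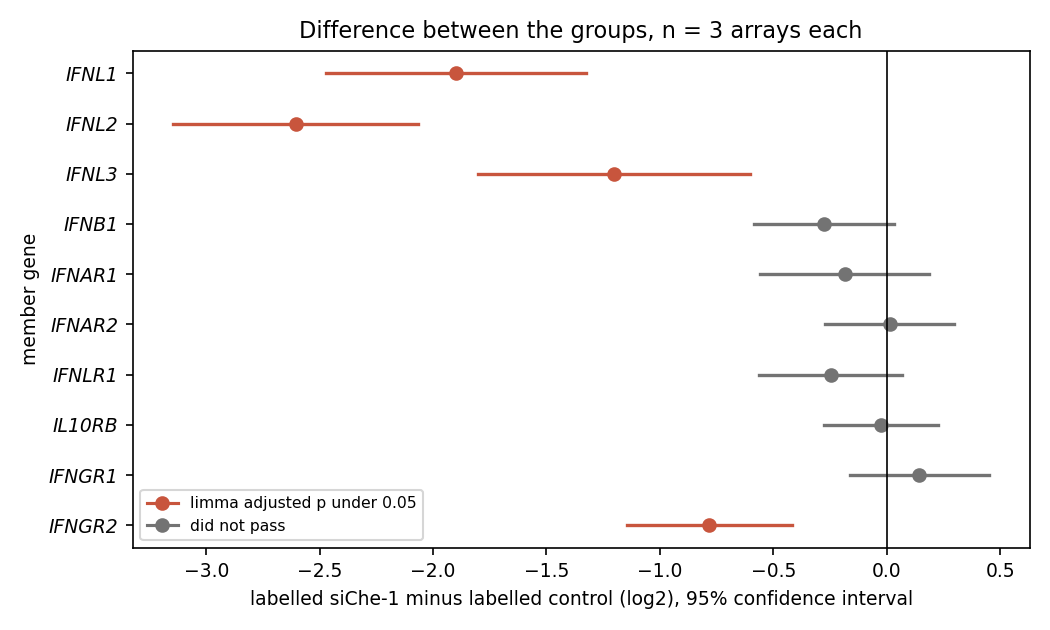
Difference of each member gene between the groups (x axis, labelled siChe-1 minus labelled control, log2 RMA intensity), as a point with its 95% confidence interval from limma, n = 3 arrays each. IFNL2 (-2.61), IFNL1 (-1.90), IFNL3 (-1.20) and IFNGR2 (-0.78) passed at an adjusted p under 0.05, and the other 6 intervals include 0.

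The type I receptor did not pass. IFNAR1, the chain that binds TYK2, read 7.29, 7.23 and 7.26 in the arrays labelled control and 6.67, 7.28 and 7.28 in those labelled siChe-1. The low value of siChe-1 replicate 1 made up the whole of the difference, which was -0.19 ± 0.17 (SE, limma adjusted p = 0.629) and was 0.02 without that array. IFNAR2, the chain that binds interferon with the higher affinity, read 6.13, 6.19 and 6.07 against 6.31, 6.18 and 5.96. Its difference was 0.01 ± 0.13 (SE, limma adjusted p = 0.970), with a 95% confidence interval from -0.27 to 0.30.

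The type III receptor did not pass either. IFNLR1, the chain that gives epithelial cells their response to lambda interferons, read 6.32, 6.16 and 6.43 in the arrays labelled control and 6.25, 6.10 and 5.83 in those labelled siChe-1. Its difference was -0.25 ± 0.14 (SE, limma adjusted p = 0.415, 95% confidence interval from -0.56 to 0.07). It passed with array weights (-0.40, limma adjusted p = 0.0323), the lowest over its 13 alternatives, which reached 0.751. IL10RB, the shared chain that also serves interleukin-10 and interleukin-22, was the steadiest member: it read 8.15, 8.17 and 8.24 against 8.21, 8.20 and 8.09. Its difference was -0.02 ± 0.11 (SE, limma adjusted p = 0.939), with a 95% confidence interval from -0.27 to 0.23.

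Of the chains of the interferon gamma receptor, IFNGR2 was lower and IFNGR1 did not pass. IFNGR1, which binds the ligand, read 7.77, 7.54 and 7.52 in the arrays labelled control and 7.56, 7.75 and 7.95 in those labelled siChe-1, a difference of 0.14 ± 0.14 (SE, limma adjusted p = 0.656). IFNGR2, the signalling chain that brings JAK2, read 8.16, 7.85 and 8.01 in the arrays labelled control against 7.57, 7.04 and 7.06 in those labelled siChe-1. These groups did not overlap, and IFNGR2 was lower by 0.78 ± 0.16 on the log2 scale (SE), or 1.72-fold, with limma adjusted p = 0.0295. The call was kept without siChe-1 replicate 1 (-0.96, adjusted p = 0.00128). It was lost without siChe-1 replicate 2 (-0.69, 0.0818), siChe-1 replicate 3 (-0.70, 0.104) or control replicates 1 (-0.70, 0.148), 2 (-0.86, 0.0806) or 3 (-0.78, 0.119). Over its 13 alternatives the limma adjusted p ran from 0.000126 to 0.148.

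**Figure D3:**
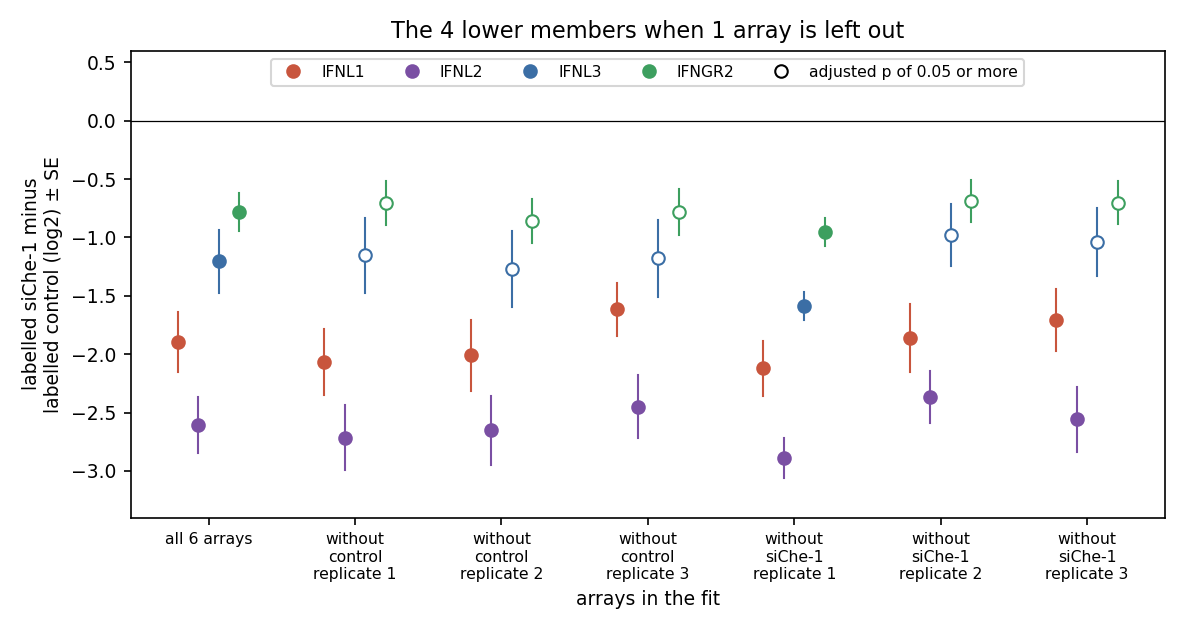
Difference of IFNL1, IFNL2, IFNL3 and IFNGR2 (y axis, labelled siChe-1 minus labelled control, log2, with its SE) fitted on all 6 arrays and with each array left out in turn (x axis). Filled points had a limma adjusted p under 0.05: IFNL1 and IFNL2 are filled in all 7 fits, IFNL3 and IFNGR2 in 2, with all arrays and without siChe-1 replicate 1.

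With 1 array left out at a time, the difference ran between -2.12 and -1.61 for IFNL1 and between -2.89 and -2.37 for IFNL2, and both calls were kept in all 6 fits. Permuting each gene's 6 values (exact test, two-sided) gave p = 0.1 for IFNL1, IFNL2, IFNL3 and IFNGR2, the smallest that 3 arrays against 3 allow. It gave between 0.2 and 1 for the other 6.

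Differences between members were tested for 6 pairs by the same exact permutation test on their per-array log2 ratios. The measured differences of IFNL2 and IFNL3 were 1.40 apart and those of IFNGR2 and IFNGR1 0.93 apart. For IFNL1 against IFNL2 no size is given, since the fall of IFNL1 is of uncertain size. In each of these 3 pairs the ratios did not overlap between the groups, and the exact permutation test gave p = 0.1 and adjusted p = 0.2 over the 6 pairs, so none passed and none could. For IFNL1 against IFNL3 the p was 0.2 (adjusted 0.24), for IFNLR1 against IL10RB 0.2 (adjusted 0.24) and for IFNAR1 against IFNAR2 0.8 (adjusted 0.8).

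Some members lie close together on a chromosome, and any part of position in the calls was not tested. RefSeq places IFNAR2, IL10RB, IFNAR1 and IFNGR2 next to each other on chromosome 21, with no other protein-coding gene between them apart from an IFNAR2-IL10RB read-through, and of these 4 only IFNGR2 passed. IFNAR2 and IL10RB signals can include that read-through transcript. The 3 lambda genes lie together on chromosome 19, and all 3 were lower.

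**Figure D4:**
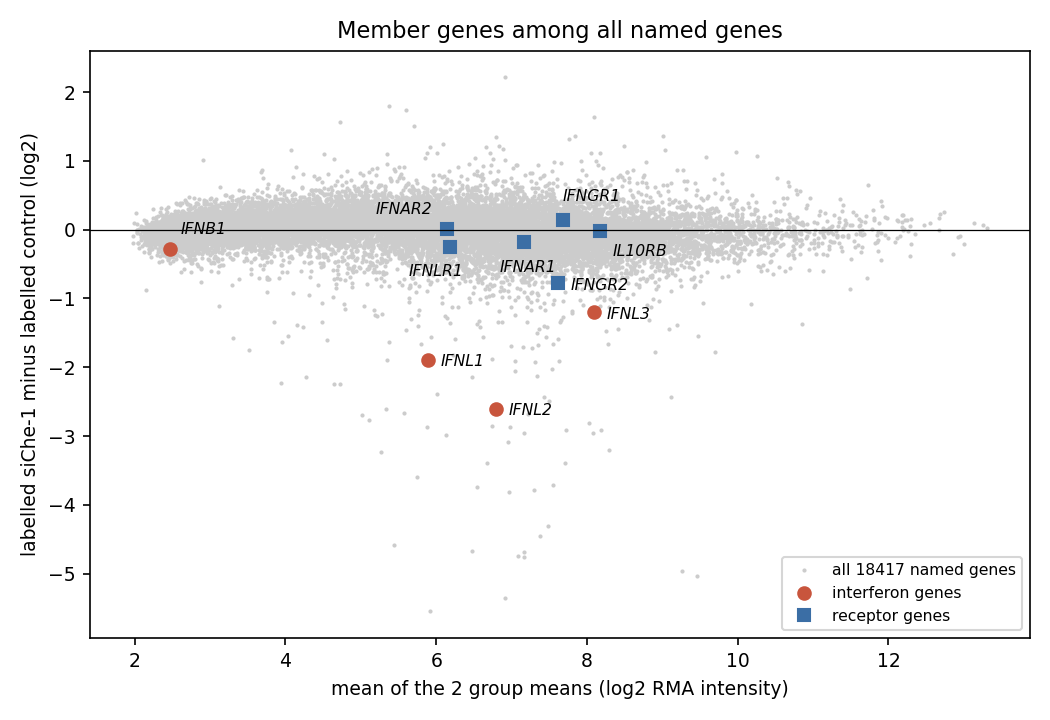
Difference between the groups (y axis, labelled siChe-1 minus labelled control, log2) against mean level (x axis, log2 RMA intensity) for 18417 named genes in grey and the 10 members in colour. IFNL1 and IFNL2 lie far below the bulk of genes, IFNL3 and IFNGR2 at its lower edge, and the other receptor genes within it.

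The remaining interferon genes with a named probe set were dim throughout. Of 18 others listed, 12 were measured, among them 8 interferon alpha genes and IFNG, IFNE, IFNK and IFNW1, and none passed by limma or had an unadjusted p under 0.05. Their means ran from 2.20 to 3.06 in the arrays labelled control and from 2.22 to 2.97 in those labelled siChe-1, levels not shown to be above background. The nearest to passing were IFNK (-0.14, limma adjusted p = 0.577) and IFNA8 (-0.18, limma adjusted p = 0.593). Measured signal above that range among interferon genes was thus limited to IFNL1, IFNL2 and IFNL3, among the 16 interferon genes with a named probe set. Interferon alpha genes are close copies of each other, so their probe sets can share signal.

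Most of the 11 other ligands and receptor chains of the interleukin-10 family were not shown to be above background. In both groups 10 read within the range of unrelated lineages, and IL22RA1 did so in the arrays labelled siChe-1. None passed by limma, and 2 had an unadjusted p under 0.05. These were IL22RA1, the partner of IL10RB for interleukin-22 (-0.50, limma adjusted p = 0.212), and IL20RA (-0.30, limma adjusted p = 0.275). Without siChe-1 replicate 1, and also with array weights, 1 of the 11 was lower.

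The counts of the lists from here on stand beside 2.52% of all named genes lower and 1.19% higher. The lists were chosen with earlier results of these data known, so their counts are a description. They were not screened for genes that interferon itself induces. The counts of kinases, regulators and sensors are thus not separate from that of the receptor targets. Downstream of the receptors, IRF9, the DNA-binding part of ISGF3, was lower and the kinases did not pass. Of 5 measured kinases and STAT factors 1 was lower: IRF9 fell from 8.00 ± 0.15 to 6.09 ± 0.24 (SD, n = 3 each), a difference of -1.91 (limma adjusted p = 5.24e-05). JAK1 (-0.18), JAK2 (-0.22), TYK2 (-0.13) and STAT3 (-0.01) did not pass, and JAK1 and JAK2 were lowest in siChe-1 replicate 1, at 8.13 and 5.06. Of 9 negative regulators 1 was lower, USP18, which blocks signalling at IFNAR2. It fell from 8.56 ± 0.27 to 5.88 ± 0.14 (SD, n = 3 each, limma adjusted p = 5.04e-06). Without siChe-1 replicate 1, PTPN11, a phosphatase, was also higher. With array weights or with the replicate block, 1 negative regulator was higher too. SOCS1 and SOCS3, which inhibit the receptor kinases, differed by 0.05 and -0.02 (limma adjusted p = 0.908 and 0.965).

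Of 20 sensors and factors that turn interferon genes on, 9 were lower and 11 did not pass, with a median difference of -0.50. The largest differences were in RIGI (-4.30) and IFIH1 (-3.73), which encode cytosolic sensors of double-stranded RNA, and in DHX58 (-1.89) and TLR3 (-1.83), an endosomal sensor. IFIH1 and DHX58 read 4.68 and 4.41 in the arrays labelled siChe-1, within the range of unrelated lineages, so the size of their falls is uncertain. The other genes that passed were IRF1, JUN, IRF7, TRIM25 and TRAF3, from -1.50 to -0.56. IRF3 (-0.02) and TBK1 (-0.18), the factor and kinase that start interferon gene transcription, did not pass, nor did MAVS, the adaptor of RIGI and IFIH1 (0.37, limma adjusted p = 0.176). With 1 array left out at a time, the number lower ran from 7 to 10.

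All 10 listed targets of the type I and type III receptors were lower, among them IFI44 (-5.55), IFIT2 (-5.36), IFI6 (-5.03) and IFIT1 (-4.96). In the arrays labelled siChe-1, 6 of the 10 read within the range of unrelated lineages (IFIT2, IFIT3, MX1, OAS1, IFI44 and RSAD2), so the size of their falls is uncertain. The other 4 (IFIT1, ISG15, IFI6 and IFI27) read above it in both groups and differed by -5.03 to -2.80. Without control replicate 1, 9 of the 10 were lower, MX1 missing the threshold (-0.78, limma adjusted p = 0.0505). Of 8 measured targets mainly of the interferon gamma receptor 1 was lower, SECTM1 (-1.18, limma adjusted p = 0.00323), and 7 did not pass. Of these 8, 6 read within the range of unrelated lineages in both groups (CIITA, IDO1, CXCL9, GBP2, GBP5 and ICAM1). They are not shown to be above background, and a change in them could be missed. The only other one above that range, HLA-DMA, read 6.20 and 6.40 (arrays labelled control first, limma adjusted p = 0.466).

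**Figure D5:**
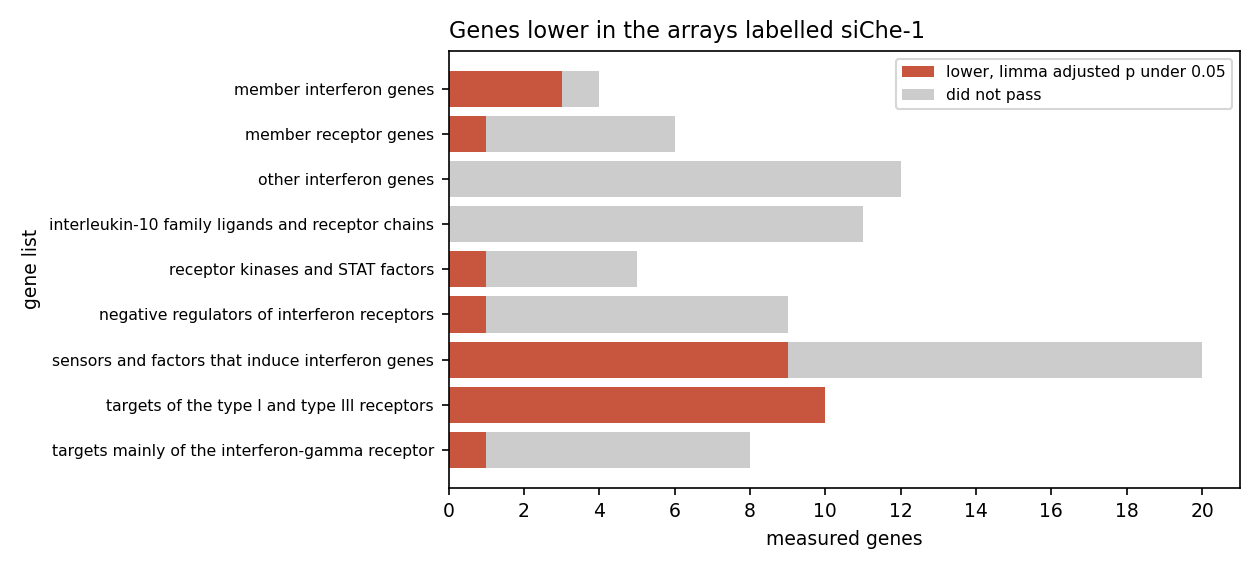
Number of measured genes (x axis) that were lower in the arrays labelled siChe-1 at a limma adjusted p under 0.05 (red) or did not pass (grey), for the members by role and for 7 lists of related genes. None was higher. The red share is largest for targets of the type I and type III receptors (10 of 10), followed by the member interferon genes (3 of 4) and the sensors and inducing factors (9 of 20). Over all named genes 2.52% were lower. The members and lists were chosen with earlier results of these data known, so the order of the shares is a description.

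Outside these lists, the genes most like IFNL2 over the 6 arrays, by the root mean square distance between values centred on each gene's mean, were CFB (0.26, difference -2.87), TNFAIP3 (0.26, -2.39) and LAMP3 (0.27, -2.85). CFB encodes complement factor B and TNFAIP3 the NF-kB inhibitor A20. Those most like IFNGR2 were C11orf24 (0.099, difference -0.92), CAVIN1 (0.10, -0.70) and S100A16 (0.10, -0.81). CFB and TNFAIP3 read 4.44 and 4.82 in the arrays labelled siChe-1, within the range of unrelated lineages, so the size of these falls is uncertain. The 6 were picked for that likeness, so their differences are a description.

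Over the whole array, 685 genes passed, 465 lower and 220 higher, and 680 lower and 170 higher when each array was centred on its median. The count was 273, 290 and 272 without control replicate 1, 2 or 3, and 1565, 462 and 350 without siChe-1 replicate 1, 2 or 3. Of the epithelial markers, EPCAM (10.4 and 10.1 in the arrays labelled control and siChe-1) and KRT8 (12.5 and 12.1) were bright. Of the intestinal markers, the transcription factor CDX2 (7.07 and 7.07) read above the range of unrelated lineages, and VIL1 (3.63 and 3.71) and GPA33 (3.25 and 3.45) within it. KRT19 was lower (-0.59, limma adjusted p = 0.0171), and the other 9 epithelial markers did not pass. That call was lost without siChe-1 replicate 2 or 3 or any 1 control array (adjusted p from 0.0568 to 0.0905), and 2 were lower without siChe-1 replicate 1. Of the other 9, KRT18 (-0.44), KRT8 (-0.39) and CDH1 (0.33) had an unadjusted limma p under 0.05. None of 11 leukocyte or 5 fibroblast markers passed by limma, with 1 of each at an unadjusted p under 0.05, CD14 (0.38) and COL1A1 (0.38). With array weights 1 leukocyte marker was higher. COL1A1 (7.02 and 7.41) read above the range of unrelated lineages, and the other 4 fibroblast markers within it in both groups. Of the leukocyte markers, 9 read within the range of unrelated lineages in both groups, among them PTPRC, the pan-leukocyte marker (2.41 and 2.46), and CLEC4C, of plasmacytoid dendritic cells (3.09 and 3.02). TYROBP (5.84 and 6.07) and NKG7 (5.41 and 5.58) read above it. Summed over all 11 markers, log2 levels were 38.7 to 39.6 in arrays labelled control and 39.7 to 40.6 in those labelled siChe-1. That sum is mostly background signal and is no measure of leukocytes. All arrays were labelled as the same cell line, and the part of other cells in the results was not tested.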

How the data were processed

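Each of 6 arrays was made from 6 micrograms of total RNA. The authors deposited log2 intensities. The tools behind them were RMA and Affymetrix Expression Console, versions unstated, according to the submitters' processing notes. RMA makes the arrays' distributions alike, which hides any change in RNA content per cell, and it compresses dim genes. The deposited log2 medians lay between 4.95 and 5.00 in the arrays labelled control and between 5.03 and 5.05 in those labelled siChe-1. Of 33297 probe sets, 19460 had 1 gene symbol. A gene with several was read from its brightest on average. Each member had 1, so no measured value chose among them.

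The comparison, siChe-1 minus control, used lmFit and eBayes of limma 3.58.1 (R 4.3.3) without covariates or a filter on low signal, with Benjamini-Hochberg adjustment over 18417 genes and a threshold of 0.05. Errors of a difference are moderated SEs. Tested on simulated data for this comparison (18417 genes, 200 of them changed), the fit recovered 71% of 2-fold and 99% of 4-fold changes. Of its calls, 2.86% were false. The simulated noise was independent, with the same spread for a gene in every array. It did not cover an array that stands apart, as siChe-1 replicate 1 does for some genes. The members and gene lists were chosen with earlier results of these data known. Named genes are all members, AATF, up to 4 called genes of each list with the largest change (where none was called, those nearest to passing), and the 3 genes nearest in pattern to IFNL2 and to IFNGR2. Others are examples chosen after their values were seen. Alternatives were other scalings, gene filters, variance models, array weights, a replicate block, a threshold of 0.01 and leaving out each array.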

Additional observations from a re-analysis of the deposited data

How the results depend on the processing

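All 13 alternative fits kept AATF higher and IFNL1 and IFNL2 lower past the threshold, with limma. IFNL3 and IFNGR2 kept their direction in all 13 and passed in 7. With a second quantile normalization 2 members were lower, IFNL1 and IFNL2, with IFNL3 at -1.16 (limma adjusted p = 0.0615) and IFNGR2 at -0.72 (0.0608). An adjusted p under 0.01 also left 2 members. Leaving out 1 array gave between 2 and 4 members and between 272 and 1565 genes over the array. Each such fit has fewer samples. Without siChe-1 replicate 1 the number of genes rose from 685 to 1565, and without any other array it fell. The cause of these changes was not tested. Array weights gave 2865 genes, against 685, and 5 members, the fifth being IFNLR1. A threshold of 0.01 gave 261 genes.

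The labels do not say whether the replicate numbers pair the samples. Deviations of same-numbered arrays from their group means correlated at 0.23, 0.064 and -0.045, and not every array correlated best with its own number. With the replicate number as a block, 1145 genes passed, against 685 without it, and the same 4 members were lower. These values are too few to tell whether the arrays were paired. Leaving out the dimmest 40% of genes removed IFNB1, so that fit gives no value for it. Precision is limited by 3 arrays a group, and for IFNB1, and IFNL1 in the arrays labelled siChe-1, by a signal not shown to be above background.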
